A study of Mus musculus with 7 samples.

Results

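The cell cycle and proliferation genes examined here are 35 genes listed by symbol for their roles in the cell cycle, out of 51912 genes in the count table. They cover the D-type cyclins and their kinases, the inhibitors of cyclin-dependent kinases (CDKs), factors of entry into S phase, DNA replication, the control of entry into mitosis, and mitosis itself. All 35 were found by Ensembl identifier, and all 35 were among the 16504 genes that had enough reads to be tested. They were measured by RNA sequencing of pancreatic islets from db/db mice, which lack a working leptin receptor and become obese and diabetic. In the AAV-Adipsin group, 3 db/db mice had received an adeno-associated virus (AAV) coding for adipsin, the complement factor D protease that fat cells secrete. In the AAV-GFP group, 4 db/db mice had received the virus coding for green fluorescent protein. In both groups the islets were taken 4 weeks after the vector and were held in culture for 12 hours before RNA extraction, and each mouse gave 1 library. The sources used here do not give the promoter in the vector or the age and sex of the mice. Every mouse was db/db, so no library comes from a lean or an uninjected mouse.

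A cell that leaves rest first makes D-type cyclins, which switch on CDK4 and CDK6. These kinases phosphorylate the retinoblastoma proteins and free the E2F factors, which turn on genes of DNA synthesis. Genes of G2 and mitosis follow later in the cycle, through the MuvB complex with B-MYB and FOXM1, and are kept silent in resting cells by the DREAM complex. In mice, cyclin D2 and CDK4 are needed for the growth of beta cell mass after birth, and adult beta cells divide rarely.

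Total counts per library were 31255734 to 39281934 in the AAV-Adipsin group and 29601707 to 43997400 in the AAV-GFP group. Values are library-scaled read counts (CPM), corrected for depth and composition, unless TPM are named, which also divide by exonic length and are used for comparing genes. A floor of 3 counts stood at 0.0682 to 0.101 CPM, depending on the library, and covers counting error only. Cfd, which codes for adipsin, had 839 to 3965 counts in AAV-Adipsin libraries and 0 to 1 in AAV-GFP libraries. Replicate 1 of each group is described in the labels by a treatment name and the other 5 libraries by a db number, and the labels do not say what separates these descriptions. The beta cell marker list summed to 164419.5 to 204807 CPM in AAV-Adipsin libraries and 173572 to 203420.3 CPM in AAV-GFP libraries, the highest of the cell type lists examined. Acinar markers were also present, at a summed 3914 to 14791 CPM in AAV-Adipsin libraries and 3229 to 20646 CPM in AAV-GFP libraries.

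The highest levels were those of a few G1 genes and of Pcna, while most genes of G2 and mitosis and some G1 genes were low. Per exonic length, Ccnd2 (cyclin D2) had the highest mean of the 35, at 103 ± 8.85 TPM in AAV-Adipsin islets (SD, n = 3) and 99.9 ± 25.4 TPM in AAV-GFP islets (SD, n = 4). Cdk4, its kinase partner, stood at 94.7 ± 3.45 TPM in AAV-Adipsin islets and 93.0 ± 3.76 TPM in AAV-GFP islets. Ccnd1 (cyclin D1) followed at 87.8 ± 9.72 TPM in AAV-Adipsin islets and 84.8 ± 15 TPM in AAV-GFP islets. These leading genes overlapped in level between libraries, so their order is not separated from their spread. Cdkn1b, which codes for the CDK inhibitor p27, and Pcna, the sliding clamp of DNA polymerase, had means over all 7 libraries of 49.4 and 37.7 TPM. These were the 5 genes with a mean above 30 TPM.

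Below them came Myc, a growth-promoting transcription factor, at a mean of 15.8 TPM over all libraries, Wee1, the kinase that holds CDK1 inactive before mitosis, at 15 TPM, and E2f1, an activator of S phase genes, at 12.9 TPM. A total of 17 genes had a mean under 3 TPM, most of them genes of G2 and mitosis. Mki67, which codes for the Ki-67 antigen of cycling cells, stood at 1.05 TPM over all libraries. Top2a, the topoisomerase that untangles sister chromatids, stood at 0.871 TPM and Cdk1, the kinase that drives entry into mitosis, at 0.858 TPM. Bub1, a spindle checkpoint kinase, was the lowest of the 35 at 0.200 TPM. Cdk6 stood at 0.540 TPM, far under the 93.7 TPM of Cdk4, although both kinases pair with D-type cyclins.

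**Figure D1:**
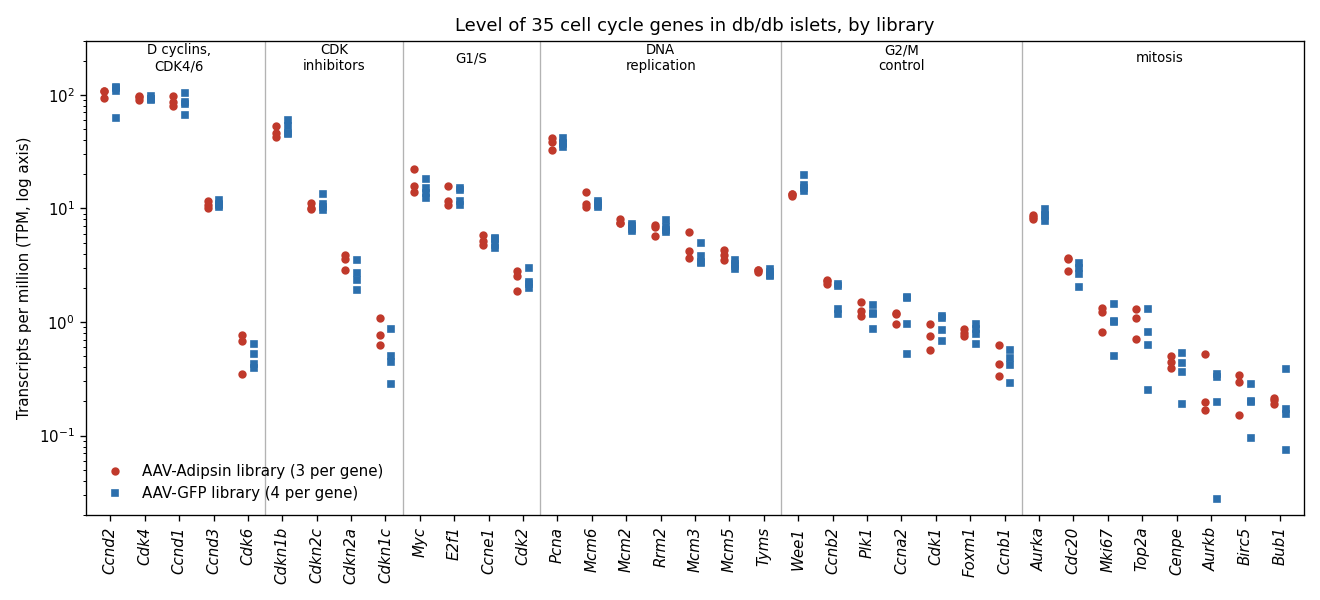
Level of each gene per library in TPM on a log axis, grouped by role, with circles for the 3 AAV-Adipsin libraries and squares for the 4 AAV-GFP libraries. Ccnd2, Cdk4 and Ccnd1 lie highest, with means over all libraries of 101, 93.7 and 86.1 TPM, and Bub1 lowest at 0.200 TPM.

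With adipsin, no cell cycle gene changed at an adjusted p under 0.05. Of the 35 genes, 0 passed in edgeR's quasi-likelihood test with Benjamini-Hochberg adjustment over all genes tested, against 0.00606% of all genes tested, which is 1 gene of 16504. DESeq2 passed 0 of the 35 as well, against 0.0242% of all genes tested. At an unadjusted edgeR p under 0.05 there was 1 of the 35, Wee1, against 1.16% of all genes tested. The fitted log2 fold change of AAV-Adipsin over AAV-GFP was above 0 for 20 of the 35 (57.1%, against 46.2% of all genes tested) and below 0 for 15. Its median was 0.008 over the 35 and -0.011 over all genes tested. The 95% interval of the fold change lay within 2-fold either way for 30 genes and within 1.5-fold for 18. The other 5, with wider intervals, were Cdkn1c, Top2a, Aurkb, Birc5 and Bub1.

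**Figure D2:**
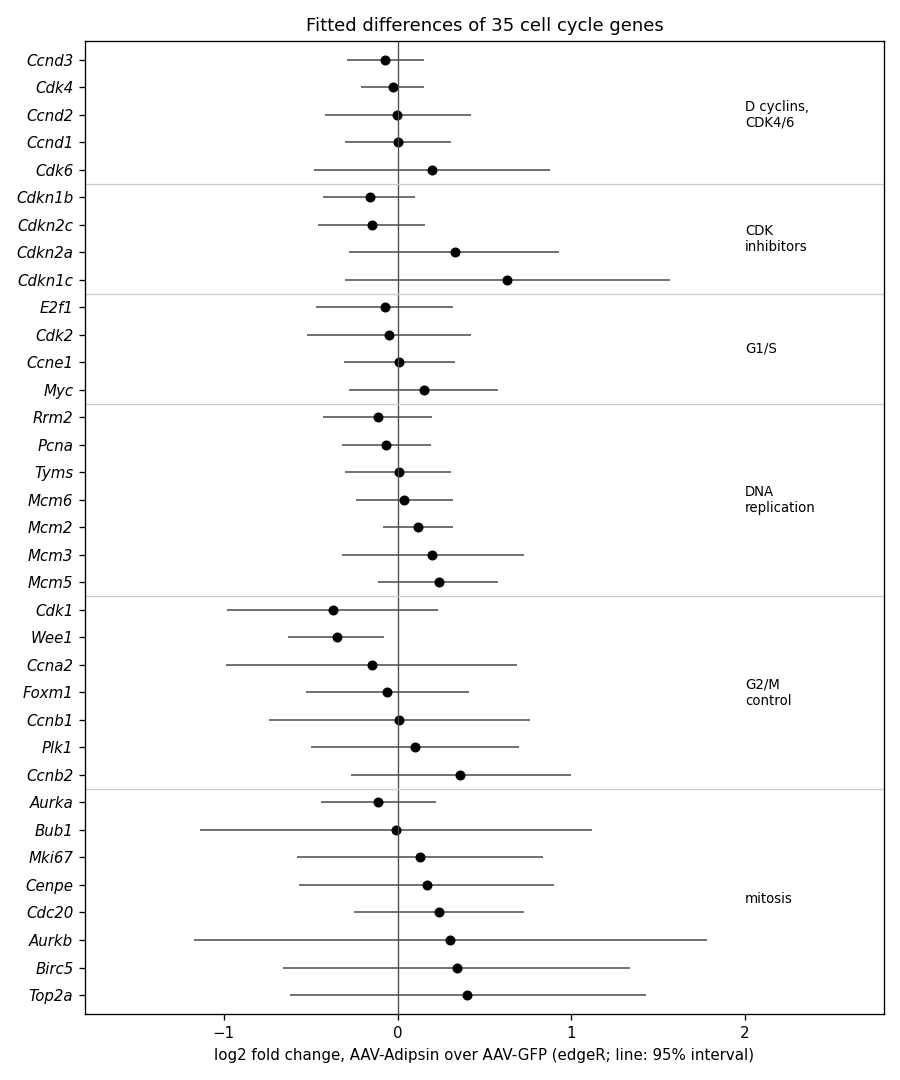
Log2 fold change of each gene, AAV-Adipsin over AAV-GFP, from edgeR (points) with its 95% interval (lines), grouped by role; the vertical line marks 0. The interval of Wee1 runs from -0.63 to -0.079 and is the only one of the 35 that leaves out 0, before any adjustment.

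The D-type cyclins and their kinases, the first switch out of rest, had close means in both groups, except for Cdk6. Ccnd2 (GRCm38, chr6:127125162-127152193, minus strand) had 412, 336 and 375 CPM in AAV-Adipsin replicates 1 to 3 and 393, 424, 433 and 248 CPM in AAV-GFP replicates 1 to 4. The groups overlapped, and the lowest value was in AAV-GFP replicate 4. Its log2 fold change was -0.0019 (SE 0.18, edgeR adjusted p = 1.00). Ccnd3 (cyclin D3) had 41.4, 36.0 and 32.6 CPM in AAV-Adipsin libraries and 40.7, 36.6, 38.6 and 38.4 CPM in AAV-GFP libraries, again with overlap. Ccnd1 averaged 160.0 ± 22.9 CPM in AAV-Adipsin islets (SD, n = 3) and 159 ± 23.3 CPM in AAV-GFP islets (SD, n = 4). Cdk4 averaged 119 ± 8.70 CPM in AAV-Adipsin islets and 121 ± 4.15 CPM in AAV-GFP islets, and Cdk6 had log2 fold change 0.20 (SE 0.30). Of the 5 genes, 2 lay above 0 and 3 below, and 0 passed.

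The CDK inhibitors, the brakes on these kinases, were split, with 2 above 0, 2 below and 0 that passed. Cdkn1b (GRCm38, chr6:134920401-134925513, plus strand) had 96.9, 74.9 and 77.4 CPM in AAV-Adipsin libraries and 106, 93.6, 85.3 and 87.4 CPM in AAV-GFP libraries. In each group the highest value was in replicate 1, the library described by a treatment name, and the groups overlapped because of it. The log2 fold change of Cdkn1b was -0.16 (SE 0.12), and -0.19 with the description style as a batch in the fit (edgeR adjusted p = 0.999). Cdkn1c, which codes for the imprinted inhibitor p57, had 0.882, 0.603 and 0.475 CPM in AAV-Adipsin libraries and 0.400, 0.682, 0.234 and 0.380 CPM in AAV-GFP libraries. Its groups overlapped through AAV-GFP replicate 2, and its log2 fold change of 0.63 (SE 0.41, edgeR adjusted p = 1.00) was the highest of the 35. Cdkn2a, whose products p16 and p19ARF accumulate in ageing beta cells, averaged 1.55 ± 0.220 CPM in AAV-Adipsin islets and 1.24 ± 0.310 CPM in AAV-GFP islets. Cdkn2c, the p18 inhibitor of CDK4 and CDK6, averaged 10.7 ± 1.08 CPM in AAV-Adipsin islets and 11.9 ± 1.61 CPM in AAV-GFP islets.

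The G1/S factors and the replication genes held no gene past the test either. Myc had 15.1, 23.0 and 15.9 CPM in AAV-Adipsin libraries and 14.5, 13.1, 19.9 and 17.4 CPM in AAV-GFP libraries, so that the groups overlapped and the highest value was in AAV-Adipsin replicate 2. E2f1 averaged 15.6 ± 3.77 CPM in AAV-Adipsin islets and 16.4 ± 2.26 CPM in AAV-GFP islets, and Ccne1 (cyclin E1) and Cdk2, its kinase, had log2 fold changes of 0.0096 (SE 0.14) and -0.049 (SE 0.21). Of the 4 G1/S genes, 2 lay above 0 and 2 below, and 0 passed. Among the 7 replication genes, 5 lay above 0 and 2 below, and 0 passed. Pcna had 31.7, 38.5 and 34.3 CPM in AAV-Adipsin libraries and 32.8, 35, 35.6 and 42.4 CPM in AAV-GFP libraries, with overlap. Mcm5, a subunit of the replicative helicase (GRCm38, chr8:75109569-75128439, plus strand), had 5.68, 6.66 and 5.81 CPM in AAV-Adipsin libraries and 5.07, 4.55, 4.99 and 5.93 CPM in AAV-GFP libraries. The 3 AAV-Adipsin values lay above all AAV-GFP values but that of replicate 4. The log2 fold change of Mcm5 was 0.24 (SE 0.15, edgeR adjusted p = 1.00). The other helicase subunits had log2 fold changes of 0.12 (SE 0.089) for Mcm2, 0.20 (SE 0.23) for Mcm3 and 0.039 (SE 0.12) for Mcm6. Rrm2, a subunit of ribonucleotide reductase, and Tyms, thymidylate synthase, which supply DNA precursors, stood at -0.11 (SE 0.14) and 0.0064 (SE 0.13).

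Wee1 (GRCm38, chr7:110122046-110143286, plus strand) was the gene of the 35 with the smallest p. It had 18.4, 17.8 and 16.2 CPM in AAV-Adipsin libraries and 18.9, 26.3, 22.3 and 21.8 CPM in AAV-GFP libraries. All 3 AAV-Adipsin values lay below all 4 AAV-GFP values, by a narrow gap at AAV-GFP replicate 1. No other gene of the 35 had groups without overlap, which makes 1 of 35 (2.86%), against 2.73% of all genes tested in either direction and 1.58% with AAV-Adipsin lower. Its log2 fold change was -0.35 (SE 0.12, 95% interval -0.63 to -0.079), with an unadjusted edgeR p of 0.0175 and an adjusted p of 1.00. An exact two-sided permutation test on the difference of mean CPM, over the 35 divisions of 7 libraries into 3 and 4, gave p = 0.0571. This is not the smallest p that such a test can give. The difference of mean log2 CPM, AAV-Adipsin minus AAV-GFP, was -0.042 between the pair of libraries described by a treatment name and -0.46 among the 5 described by a db number. The fitted value ran from -0.41 to -0.26 when 1 library was left out in turn.

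Most genes of G2 and mitosis had few counts, Wee1 and Aurka being the best covered. In bulk tissue, fewer cycling cells and less RNA per cycling cell cannot be told apart. Of the 7 G2/M genes, 3 lay above 0 and 4 below, of the 8 mitotic genes 6 lay above 0 and 2 below, and 0 passed in either group. Aurka, the spindle pole kinase, had 8.82, 8.25 and 7.58 CPM in AAV-Adipsin libraries and 8.43, 7.57, 8.94 and 10.5 CPM in AAV-GFP libraries, with overlap. Cdc20, an activator of the anaphase-promoting complex, had 2.67, 2.03 and 2.55 CPM in AAV-Adipsin libraries and 2.42, 2.14, 1.97 and 1.62 CPM in AAV-GFP libraries. The 2 groups overlapped, with the lowest value in AAV-GFP replicate 4. Its log2 fold change was 0.24 (SE 0.22, edgeR adjusted p = 1.00). Cdk1 averaged 1.43 ± 0.350 CPM in AAV-Adipsin islets and 1.84 ± 0.384 CPM in AAV-GFP islets, a log2 fold change of -0.37 (SE 0.27). Its partner Ccnb2 (cyclin B2) averaged 1.33 ± 0.0918 CPM in AAV-Adipsin islets and 1.03 ± 0.296 CPM in AAV-GFP islets, a log2 fold change of 0.36 (SE 0.28). The kinase and the cyclin thus had fitted values of opposite sign, neither past the test. Within the treatment-named pair the log2 difference of Cdk1, AAV-Adipsin minus AAV-GFP, was -0.97, and among the db-numbered libraries it was -0.11. For Top2a these were -0.15 in the pair and 0.92 among the db-numbered libraries, and for Mki67 -0.24 in the pair and 0.40 among the db-numbered libraries, so the sign differed between the description styles for both.

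**Figure D3:**
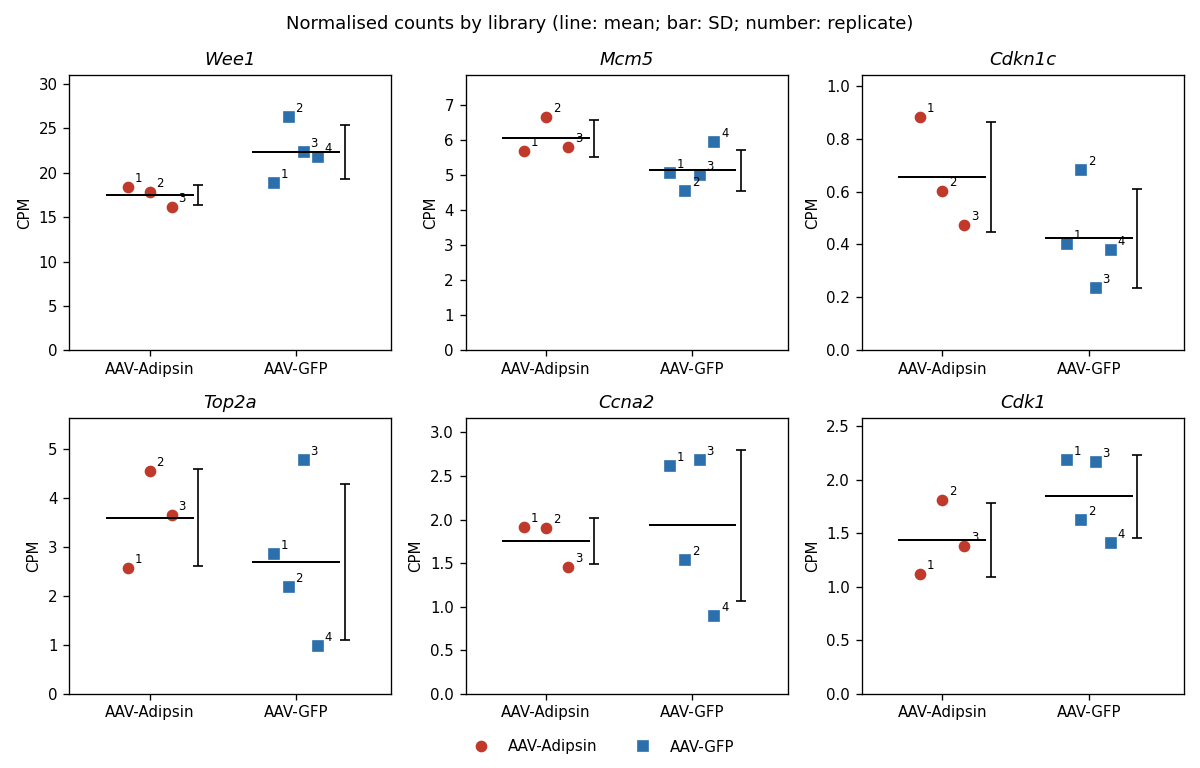
CPM by library for 6 genes, AAV-Adipsin (circles) left of AAV-GFP (squares), with the mean as a line, the SD as a bar and the replicate number beside each point. Wee1 has no overlap between the groups, at 16.2 to 18.4 CPM in AAV-Adipsin libraries and 18.9 to 26.3 CPM in AAV-GFP libraries, and Top2a and Ccna2 are lowest in AAV-GFP replicate 4, at 0.966 and 0.897 CPM.

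The promoters of several of these genes are shown because they carry the sequence elements known to sort the late genes from the replication genes. The windows run from 250 bases before to 50 bases after the start of the gene, as given by RefSeq for GRCm38.p6, and 27 of the 35 genes have one. Aurkb, Ccna2, Ccnd1, Ccnd2, Cdkn1c, Foxm1, Myc and Wee1 have none. Capitals mark the cell cycle genes homology region, searched as TTTGAA, and the E2F element, searched as TTTCCCGC, TTTGGCGC, TTTCGCGC or TTTGCCGC, all on both strands, and matches that overlap run into 1 block. The windows are those of Top2a (chr11:99024140-99024439), Mki67 (chr7:135716330-135716629), Ccnb2 (chr9:70421505-70421804), Cdk1 (chr10:69352863-69353162) and Mcm6 (chr1:128359656-128359955), all on the minus strand, and of Mcm5 (chr8:75109259-75109558) on the plus strand, each read 5′ to 3′ along the gene.
Top2a: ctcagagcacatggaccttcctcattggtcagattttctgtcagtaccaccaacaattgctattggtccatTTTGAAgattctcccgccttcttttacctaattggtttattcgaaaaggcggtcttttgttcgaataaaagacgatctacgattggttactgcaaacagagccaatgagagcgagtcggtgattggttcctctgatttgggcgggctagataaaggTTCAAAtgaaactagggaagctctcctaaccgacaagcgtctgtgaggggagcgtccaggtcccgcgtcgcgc
Mki67: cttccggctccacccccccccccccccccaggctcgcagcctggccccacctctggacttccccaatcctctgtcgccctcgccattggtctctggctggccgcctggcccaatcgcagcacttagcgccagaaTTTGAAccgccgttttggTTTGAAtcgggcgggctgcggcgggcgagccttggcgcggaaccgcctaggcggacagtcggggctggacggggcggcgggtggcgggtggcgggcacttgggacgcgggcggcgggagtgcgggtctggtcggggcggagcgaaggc
Ccnb2: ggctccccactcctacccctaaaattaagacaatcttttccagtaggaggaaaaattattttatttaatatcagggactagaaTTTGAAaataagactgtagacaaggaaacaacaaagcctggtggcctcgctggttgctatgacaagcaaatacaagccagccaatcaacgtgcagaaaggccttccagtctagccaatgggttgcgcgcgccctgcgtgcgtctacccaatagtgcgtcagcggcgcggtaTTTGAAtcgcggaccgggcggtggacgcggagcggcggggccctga
Cdk1: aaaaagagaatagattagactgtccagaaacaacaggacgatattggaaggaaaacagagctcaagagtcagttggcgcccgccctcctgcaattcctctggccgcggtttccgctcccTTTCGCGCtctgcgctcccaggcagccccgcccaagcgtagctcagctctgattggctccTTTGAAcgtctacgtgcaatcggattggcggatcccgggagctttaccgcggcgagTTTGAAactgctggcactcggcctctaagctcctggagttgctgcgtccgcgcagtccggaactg
Mcm5: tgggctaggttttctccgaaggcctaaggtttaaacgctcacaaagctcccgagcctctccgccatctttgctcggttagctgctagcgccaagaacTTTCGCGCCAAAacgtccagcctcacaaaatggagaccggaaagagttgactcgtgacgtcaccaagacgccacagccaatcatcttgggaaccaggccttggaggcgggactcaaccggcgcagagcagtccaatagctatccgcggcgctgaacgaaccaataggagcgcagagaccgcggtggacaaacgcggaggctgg
Mcm6: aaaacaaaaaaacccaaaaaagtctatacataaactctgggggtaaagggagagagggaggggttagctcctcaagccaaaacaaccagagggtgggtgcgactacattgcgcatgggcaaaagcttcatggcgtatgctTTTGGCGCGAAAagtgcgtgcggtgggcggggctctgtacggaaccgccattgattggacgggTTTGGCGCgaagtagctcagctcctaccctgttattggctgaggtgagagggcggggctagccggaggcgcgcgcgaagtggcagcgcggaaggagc

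The cell cycle genes homology region was found in 3 of the 4 G2/M genes with a window (Ccnb2, Cdk1 and Plk1) and in 4 of the 7 mitotic genes (Aurka, Cdc20, Mki67 and Top2a). Among the replication genes it was in 1 of 7, Mcm2, and in none of the windows of the other roles. For comparison, 17.9% of all 32851 promoter windows hold these letters on either strand. The shares over all windows are per window, while a gene counts here if any of its windows has a match. The 27 genes have 30 windows. The E2F element was found in 3 of 7 replication genes (Mcm3, Mcm5 and Mcm6) and in Cdk1, Cdk2 and Cdkn2a, against 2.26% of all windows. CCAAT, the element bound by NF-Y, searched on both strands, was found in 4 of 4 G2/M genes, 6 of 7 mitotic genes, 6 of 7 replication genes and 3 of 3 CDK inhibitors, and in 1 of 3 genes in each of the other roles, against 37.4% of all windows. It thus did not set the late genes apart from the replication genes or the inhibitors. These are matches of letters, not measured binding.

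A single mouse stood at the low end of most late genes, which was noticed after the values were seen. AAV-GFP replicate 4 was the lowest of the 7 libraries for 11 of the 15 G2/M and mitotic genes (73.3%), against 24.8% of all genes tested. The exceptions were Cdk1, Plk1, Wee1 and Aurka, and Aurka was highest there. Of the other 20 genes, 3 were lowest in that library, Ccnd1, Ccnd2 and Ccne1. Among the 11, Aurkb had 1 count in AAV-GFP replicate 4, under the floor of 3, and Birc5 and Bub1 had 4 each. Ccnb2 was lowest by a narrow gap, at 0.759 CPM against 0.779 CPM in AAV-GFP replicate 2. The 24.8% covers genes of all count levels, not genes with as few counts. AAV-GFP replicate 3 was the highest library for 6 of the 15. The AAV-GFP group, with 4 of the 7 libraries, held both ends of the range for some of these genes, as the plot of genes by library shows. No share over all genes tested was counted for either of these.

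Top2a had 2.57, 4.54 and 3.65 CPM in AAV-Adipsin libraries and 2.85, 2.18, 4.76 and 0.966 CPM in AAV-GFP libraries. The 28 counts in AAV-GFP replicate 4 have a 95% Poisson interval of 0.642 to 1.40 CPM and that of replicate 3 runs from 4.09 to 5.50 CPM. Ccna2 (cyclin A2), needed in S phase and G2, had 1.92, 1.90 and 1.45 CPM in AAV-Adipsin libraries and 2.62, 1.53, 2.68 and 0.897 CPM in AAV-GFP libraries. Mki67 had 3.29, 4.73 and 5.03 CPM in AAV-Adipsin libraries and 3.89, 3.99, 5.85 and 2.14 CPM in AAV-GFP libraries. In each of these genes the AAV-Adipsin values lay inside the AAV-GFP range. Cenpe, a kinetochore motor, had 1.37, 1.46 and 1.60 CPM in AAV-Adipsin libraries and 1.22, 1.46, 1.87 and 0.690 CPM in AAV-GFP libraries. Relative to the median of the other AAV-GFP libraries, replicate 4 stood at 0.339 for Top2a, 0.342 for Ccna2, 0.472 for Cenpe and 0.536 for Mki67. Aurkb, Birc5 and Bub1, further genes of chromosome segregation and the spindle checkpoint, had values of 0.0345 to 0.676 CPM over all libraries.

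Summed over the 14 G2/M and mitotic genes without Wee1, the level was 27.4, 31.2 and 29.1 CPM in AAV-Adipsin libraries and 29.8, 25.2, 35.2 and 22.5 CPM in AAV-GFP libraries. The AAV-Adipsin sums lay inside the range of the AAV-GFP sums, which reached from the lowest in replicate 4 to the highest in replicate 3. The 15 G2/M and mitotic genes had a median coefficient of variation of 25.3% over the 7 libraries, and the other 20 genes 12.8%, with total counts of 76 to 5069 per gene in the G2/M and mitotic genes and 131 to 96062 in the other genes.

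Other features of these libraries moved with AAV-GFP replicate 4. Stellate cell and pericyte markers summed to 676 CPM there, against 213 to 290.2 CPM in the other AAV-GFP libraries and 329.9 to 446 CPM in AAV-Adipsin libraries. Endothelial markers summed to 957 CPM there, against 584 to 638 CPM in the other AAV-GFP libraries. Acinar markers were lowest there, at 3229 CPM, and highest in AAV-GFP replicate 3, at 20646 CPM. Total counts were also lowest in AAV-GFP replicate 4, at 29601707. The part of these in the mitotic values was not tested. Without AAV-GFP replicate 4, 16 of the 35 genes had a log2 fold change above 0, the median was -0.015, and 0 passed. The log2 fold change of Top2a was 0.13 (SE 0.33) without that library, and 0.40 (SE 0.45) with it.

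**Figure D4:**
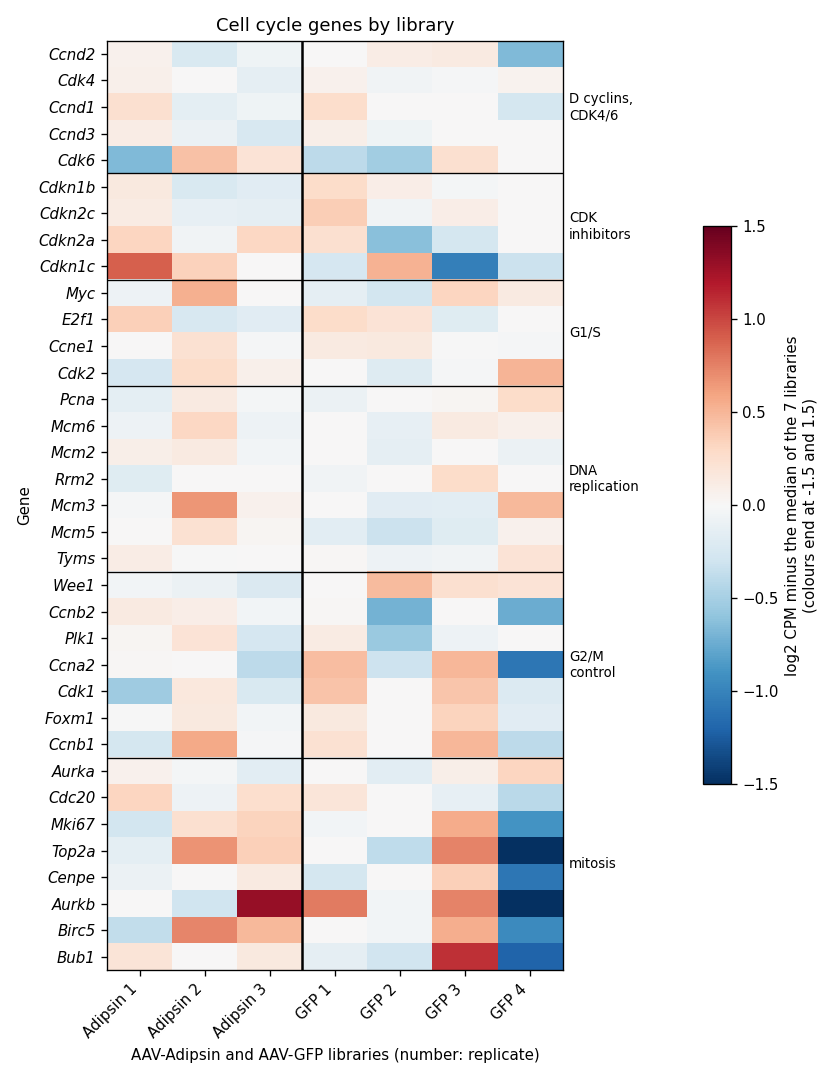
Log2 CPM of each gene minus its median over the 7 libraries (colour, ending at -1.5 and 1.5), with AAV-Adipsin libraries left of AAV-GFP libraries and genes grouped by role. The last column, AAV-GFP replicate 4, is the lowest library for 11 of the 15 genes in the G2/M and mitosis blocks, and AAV-GFP replicate 3 the highest for 6.

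Markers of non-endocrine cells, which can also divide, differed between lists in direction, and none passed the test; 46.2% of all genes tested lay above 0. Macrophage markers lay above 0 in 16 of 16 genes, with a median log2 fold change of 0.48, and summed to 193 to 452 CPM in AAV-Adipsin libraries and 178 to 273 CPM in AAV-GFP libraries. The highest sum was in AAV-Adipsin replicate 2, which was also the highest of the 7 libraries for Cdk6, Ccne1, Myc, Mcm2, Mcm3, Mcm5, Mcm6, Ccnb1, Plk1 and Birc5. How often genes at large were highest in that library was not counted, so no link to the macrophage markers can be read from this. Endothelial markers lay above 0 in 12 of 14 genes and stellate markers in 13 of 14, acinar markers lay below 0 in 18 of 18 tested, and duct markers lay above 0 in 3 of 10, with a median log2 fold change of -0.042. Of the 10 lymphocyte markers 3 were expressed enough to be tested, and Cd3e and Nkg7 had 0 counts in every library. None of these marker genes passed the adjusted threshold in edgeR. Their part in the cell cycle values was not tested.

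A wider list of 129 cell cycle genes, 126 of them tested, held no gene past the threshold either. In edgeR 0 passed, 0 had an unadjusted p under 0.05, and 68 (54.0%) had a log2 fold change above 0, with a median of 0.017. In 4 of them (3.17%, against 2.73% of all genes tested) the groups did not overlap. Cdc6, Orc1 and Sgo1 were higher and Cdca3 lower in AAV-Adipsin islets in this sense. Cdc6, which loads the replicative helicase, had 0.363, 0.507 and 0.776 CPM in AAV-Adipsin libraries and 0.356, 0.292, 0.338 and 0.242 CPM in AAV-GFP libraries. Its log2 fold change was 0.82 (SE 0.36, edgeR adjusted p = 1.00). Orc1, a subunit of the origin recognition complex, averaged 0.452 ± 0.119 CPM in AAV-Adipsin islets and 0.250 ± 0.086 CPM in AAV-GFP islets, a log2 fold change of 0.83 (SE 0.40). Uhrf1, which couples DNA methylation to replication, had 0.70 (SE 0.34). In mitosis, Bub1b, a spindle checkpoint protein, had a log2 fold change of 0.63 (SE 0.33), Nuf2, a kinetochore protein, 0.73 (SE 0.45), and Cenpn, a centromere protein, -0.49 (SE 0.28). Among the 44 further mitosis genes tested, 21 (47.7%) were lowest in AAV-GFP replicate 4, and among the 34 further replication genes 7 (20.6%), against 24.8% of all genes tested.

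None of the further inhibitors and regulators passed. Log2 fold changes ran from -0.051 to 0.19 over the further CDK inhibitors, -0.38 to 0.36 over the G1/S cyclins and kinase activators, -0.14 to 0.15 over the pocket proteins, E2F and DREAM genes, and -0.18 to 1.07 over reported regulators of beta cell replication. Cdkn1a, which codes for the p53 target p21, averaged 141 ± 8.97 CPM in AAV-Adipsin islets and 146 ± 18.6 CPM in AAV-GFP islets, with a log2 fold change of -0.051. Ccne2 (cyclin E2) averaged 6.48 ± 0.792 CPM in AAV-Adipsin islets and 7.44 ± 1.00 CPM in AAV-GFP islets, a log2 fold change of -0.20. Ccnf (cyclin F) averaged 2.13 ± 0.583 CPM in AAV-Adipsin islets and 1.66 ± 0.263 CPM in AAV-GFP islets, a log2 fold change of 0.36. Ccnh, the cyclin of the CDK-activating kinase, had a log2 fold change of -0.12. E2f5, a repressive E2F of the DREAM complex, stood at -0.14, E2f7, an atypical repressor, at 0.15, and Rbl1, the pocket protein p107, at 0.085. Cdkn3, a phosphatase of CDKs, stood at 0.19 and Cdkn2d, an inhibitor of CDK4 and CDK6, at -0.025. Among reported regulators of beta cell replication, Men1, which codes for menin, averaged 70.1 ± 1.37 CPM in AAV-Adipsin islets and 75.4 ± 5.73 CPM in AAV-GFP islets. Foxo1, a transcription factor restrained by insulin signalling, averaged 82.1 ± 4.26 CPM in AAV-Adipsin islets and 88.2 ± 7.28 CPM in AAV-GFP islets. Each gene named here had an edgeR adjusted p of 1.00.

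By description style, a cyclin and a CDK inhibitor of G1 passed the test. Between the pair of libraries described by a treatment name and the 5 described by a db number, with treatment in the edgeR fit, 2 of the 35 genes passed (5.71%), against 9.79% of all genes tested. Both were higher in the treatment-named libraries, where 4.22% of all genes tested passed as higher and 5.57% as lower. The log2 fold change was above 0 for 18 of the 35, against 49.2% of all genes tested. At an unadjusted p under 0.05 there were 6 (17.1%), against 28.2% of all genes tested. The values of the treatment-named pair lay outside the range of the other 5 in 8 genes, against 37.6% of all genes tested. These were Ccnd1, Ccnd3, Cdk4, Cdkn1b, Cdkn2c and E2f1, which were higher, and Pcna and Rrm2, which were lower. The cell cycle genes thus differed by style no more often than genes at large did. The median log2 fold change was 0.0081 over the 35 and -0.0055 over all genes tested.

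Ccnd1 (GRCm38, chr7:144929931-144939925, minus strand) rose in the treatment-named libraries. It had 186 and 189 CPM in the treatment-named libraries, AAV-Adipsin replicate 1 and AAV-GFP replicate 1, against 143, 151, 158, 158 and 132 CPM in the db-numbered libraries, AAV-Adipsin replicates 2 and 3 and AAV-GFP replicates 2 to 4. The log2 fold change was 0.34 (SE 0.084, edgeR adjusted p = 0.0461). Cdkn1b also rose, at 96.9 and 106 CPM in the treatment-named libraries, against 74.9, 77.4, 93.6, 85.3 and 87.4 CPM in the db-numbered libraries. Its log2 fold change was 0.30 (SE 0.066, edgeR adjusted p = 0.0329). A cyclin that promotes exit from rest and an inhibitor that opposes it were thus both higher in these libraries. E2f1, at 19.9 and 18.7 CPM in treatment-named libraries and 13.1 to 17.8 CPM in db-numbered libraries, had a log2 fold change of 0.41 (SE 0.12, edgeR adjusted p = 0.077) and passed in DESeq2 (adjusted p = 0.0400). Cdk6 stood at -0.63 (SE 0.26, edgeR adjusted p = 0.167). No G2/M or mitotic gene had an unadjusted p under 0.05 in this comparison.

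Neither call held in every fit with 1 library left out, though the fold changes moved little. In these fits the log2 fold change ran from 0.30 to 0.36 for Ccnd1 and from 0.26 to 0.34 for Cdkn1b. The edgeR adjusted p of Ccnd1 was 0.329, 0.139 and 0.108 without AAV-Adipsin replicate 1, 2 or 3, and 0.363, 0.0565, 0.0781 and 0.00362 without AAV-GFP replicate 1, 2, 3 or 4. That of Cdkn1b was 0.339, 0.113 and 0.0951 without AAV-Adipsin replicate 1, 2 or 3, and 0.255, 0.038, 0.0782 and 0.00679 without AAV-GFP replicate 1, 2, 3 or 4. So each call was lost when any 1 AAV-Adipsin library was left out, and also without AAV-GFP replicate 1 or 3. Beside them, beta cell markers summed to 204807 and 193012 CPM in the treatment-named libraries and 164419.5 to 203420.3 CPM in the db-numbered libraries, with 4 of the 12 markers passing as higher, against 4.22% of all genes tested. Macrophage markers summed to 193 and 178 CPM in the treatment-named libraries and 189 to 452 CPM in the db-numbered libraries, with 2 of 16 passing as lower, against 5.57% of all genes tested. The part of either in the values of Ccnd1 and Cdkn1b was not tested. Ccnd1 shares 23.4% of its exonic bases with LTO1 on the opposite strand, and whether the counting used strand is not stated in the sources used here.

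**Figure D5:**
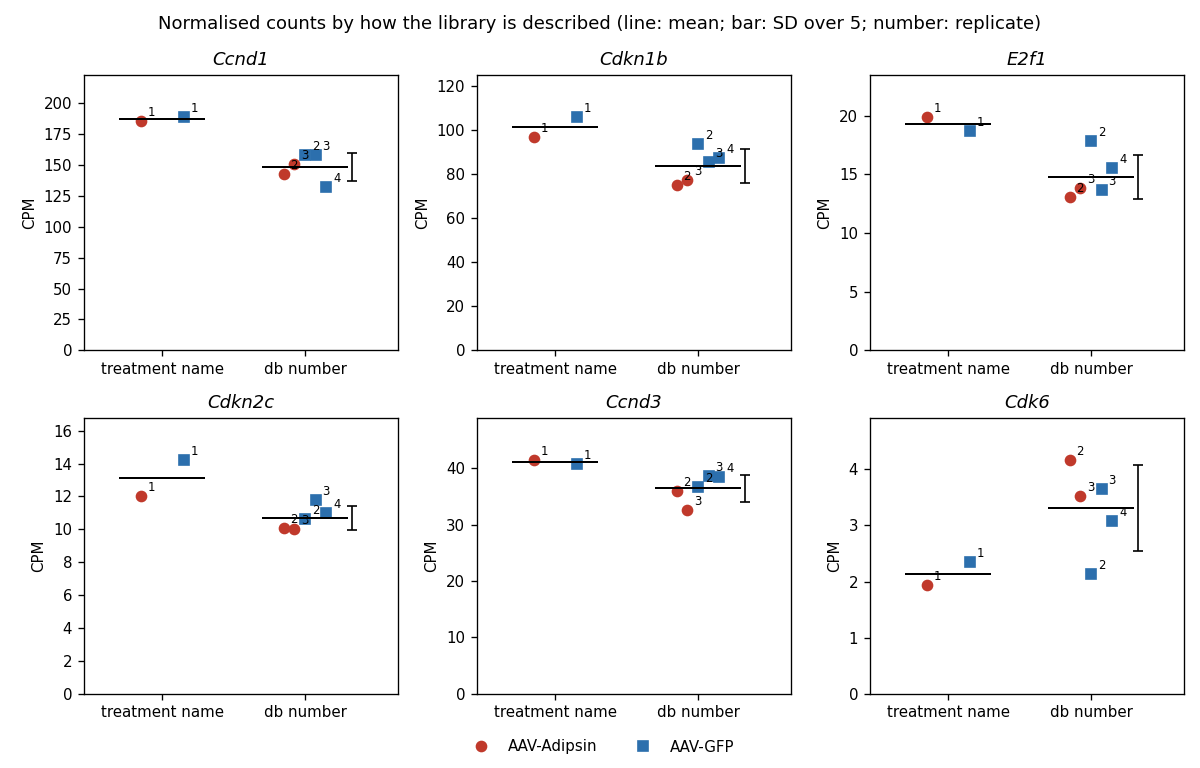
CPM by library for the 6 genes with an unadjusted p under 0.05 by description style, with the treatment-named pair left of the 5 db-numbered libraries, the mean as a line and the SD over the 5 as a bar; circles are AAV-Adipsin, squares AAV-GFP, and numbers are replicates. Ccnd1 stands at 186 and 189 CPM in the pair and at 132 to 158 CPM in the others, while Cdk6 is lower in the pair on average and overlaps the others.

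Of the wider cell cycle list, 6 of 126 genes passed by description style, 3 as higher and 3 as lower, against 4.22% of all genes tested as higher and 5.57% as lower. This is near the share of all genes tested and is no result about the list. Mybl2, which codes for the B-MYB activator of G2/M genes, had a log2 fold change of 1.31 (SE 0.32, edgeR adjusted p = 0.0418), Pold1, a DNA polymerase subunit, 0.68 (SE 0.15, adjusted p = 0.0353) and Irs2, an insulin signalling adaptor, 0.46 (SE 0.11, adjusted p = 0.0438), all higher in treatment-named libraries. E2f3, an activating E2F, fell by 0.56 on the log2 scale (SE 0.10, edgeR adjusted p = 0.0162), Cdc25a, the phosphatase that activates CDK2, fell by 0.64 (SE 0.064, adjusted p = 0.00264), and Orc2, an origin recognition subunit, fell by 0.30 (SE 0.076, adjusted p = 0.0491).

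Counting limits touch a few of the genes. Cdk4 shares 19.7% of its exonic bases with Tspan31 and Ccna2 shares 12.5% with Exosc9, each on the opposite strand, and Exosc9 had 7767 counts over all libraries against 486 for Ccna2. Cdc20 shares 53 exonic bases with Elovl1, which had 11849 counts over all libraries. The pseudogene Ccnb2-ps had 1099 counts over all libraries against 299 for Ccnb2, so reads may have been split between them.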

How the data were processed

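Islet RNA of 7 db/db mice was sequenced, 1 library a mouse, with a stranded mRNA kit per the labels' protocols. Reads were aligned with STAR to mm10 (GRCm38), per the submitters' processing notes. How reads were counted, with which program, annotation and strand option, is not given in the sources used here. The deposited table holds raw read counts per Ensembl gene, 51912 genes by 7 libraries, of which 51633 were matched to GENCODE release M21 (release number 21) for symbols and exonic lengths. No sample column was left unused.

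Counts were filtered by expression within groups and scaled by TMM, and tested with edgeR 4.0.16 (robust quasi-likelihood, R 4.3.3) with Benjamini-Hochberg adjustment over 16504 genes at a threshold of 0.05. Description style was tested with treatment as a covariate. TPM values divide by the union of exons. Standard errors come from the F statistic, and Poisson intervals at 95% and the floor of 3 counts cover counting error only. Alternatives were RLE scaling, no filter, DESeq2 1.42.0, limma-voom (limma 3.58.1), a replicate block, description style as a batch, leaving out both treatment-named libraries, and leaving out each library. The scripts were tested on simulated data. The labels state that each mouse is a separate replicate.

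The genes, lists and roles were chosen with earlier results of these data known. In each role the gene with the highest mean CPM, that with the smallest p and any gene that passed or had groups without overlap are given by library; from the further lists up to 3 genes with the smallest p are named. A result that this rule names is not reported here. Genes named for AAV-GFP replicate 4 (Top2a, Ccna2, Cenpe and others), for description style, and from the further lists for non-overlap, were chosen after their values were seen.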

Additional observations from a re-analysis of the deposited data

Results flagged for a closer look

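Rrm2, a subunit of ribonucleotide reductase, had 6.43, 7.36 and 7.36 CPM in AAV-Adipsin libraries. It had 8.83 CPM in AAV-GFP replicate 3, apart from the 7.03 to 7.31 CPM of the other AAV-GFP libraries. The gap to the nearest library was 0.842 of the whole range of the group, above Dixon's 95% critical value for 4 samples. Of 35 genes examined in this way, 1 stood out, and chance alone gives about 1 in 20. Acinar markers were also highest in AAV-GFP replicate 3, and their part in this value was not tested.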

How the results depend on the processing

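The count of cell cycle genes past the threshold for treatment was 0 under all 14 alternatives, and their median log2 fold change stayed between -0.024 and 0.080. The count of all genes past it, 1, was 0 with no filter, with limma-voom and without both treatment-named libraries, 4 with DESeq2, and 0 to 1 when 1 library was left out. By description style the count of all genes, 1616, was 2533 with DESeq2 and 39 to 4348 when 1 library was left out (39 without AAV-GFP replicate 1, 55 without AAV-Adipsin replicate 1, 346 and 501 without AAV-Adipsin replicates 2 and 3, and 671 and 4348 without AAV-GFP replicates 3 and 4), and the count of cell cycle genes, 2, was 0 to 4. The cause of these shifts was not tested. The sign of the treatment value turned for 21 of the 35 genes under at least 1 alternative and was kept for 14; none of these values passed the threshold. The replicate numbers did not pair the libraries throughout. Deviations correlated at 0.661 between the libraries numbered 1, which are the treatment-named pair. For the libraries numbered 2 and 3 they correlated at only -0.011 and 0.007. With the replicate block, which leaves out AAV-GFP replicate 4, the median was -0.017 and 0 cell cycle genes passed, and log2 fold changes turned to -0.077 (Ccnd1), -0.018 (Ccne1), 0.10 (Cdk2), 0.012 (Pcna), -0.15 (Ccnb1), -0.075 (Mki67), -0.090 (Aurkb) and -0.023 (Cenpe). With description style as a batch Ccnd1 turned to -0.025. Without both treatment-named libraries the values turned to -0.012 (Ccnd1), 0.062 (Cdk2) and -0.026 (Tyms). Ccnd2 turned to 0.0040 with RLE scaling, 0.0040 with DESeq2 and 0.028 with limma-voom, Bub1 to 0.0028 with DESeq2 and 0.18 with limma-voom, and with limma-voom Ccne1 turned to -0.0015 and Ccnb1 to -0.029. Leaving out 1 library in turn, log2 fold changes that turned ran from -0.12 to 0.11 (Ccnd1), -0.15 to 0.077 (Ccnd2), -0.17 to 0.017 (Ccnd3), -0.078 to 0.039 (Cdk4), -0.024 to 0.46 (Cdk6), -0.064 to 0.065 (Ccne1), -0.17 to 0.11 (Cdk2), -0.29 to 0.044 (E2f1), -0.056 to 0.27 (Myc), -0.14 to 0.017 (Pcna), -0.036 to 0.37 (Mcm3), -0.10 to 0.12 (Mcm6), -0.034 to 0.071 (Tyms), -0.38 to 0.048 (Ccna2), -0.25 to 0.17 (Ccnb1), -0.14 to 0.033 (Foxm1), -0.0084 to 0.23 (Plk1), -0.074 to 0.38 (Mki67), -0.34 to 0.57 (Aurkb), -0.25 to 0.55 (Bub1), -0.036 to 0.39 (Cenpe), -0.014 to 0.41 (Cdkn3), -0.11 to 0.036 (Cdkn1a), -0.22 to 0.093 (Cdkn2d) and -0.019 to 0.28 (E2f7). Aurkb and Birc5 fell under the filter in some of these fits and gave no value there. Genes with few counts, such as Bub1 with 4 counts in AAV-GFP replicate 4, are limited by depth.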
